A study of Mus musculus with 4 samples.

Results

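Arg1 macrophages of MC38 tumors were examined by single-cell RNA sequencing (scRNA-seq). They were chosen by the measured UMI counts of 10 genes, in each of 4 libraries, as cells with more than 500 detected genes that held at least 2 unique molecular identifiers (UMIs, each a counted RNA molecule) of Arg1 and at least 2 UMIs of the myeloid genes Lyz2, C1qa and Csf1r together. They also held at most 1 UMI of the mannose receptor gene Mrc1 and 0 UMIs of the T cell genes Cd3d, Cd3e and Cd3g, the neutrophil gene Csf3r and the tumor cell gene Hmga2. The rule found 630 Arg1 macrophages among 31143 cells. MC38 is a mouse colon cancer line, which was implanted under the skin of C57BL/6 mice. Their tumor cells either had the wild-type (WT) small GTPase RAC1 or were a homozygous CRISPR-Cas9 knock-in of RAC1 A159V from 1 clone, and only the tumor cells differed in genotype, since all hosts were C57BL/6 mice. Mice with either tumor received an antibody against the T cell checkpoint receptor PD1 (anti-PD1) or an IgG isotype control, which gave 1 library for each pair of genotype and antibody. All 4 groups shared the host strain, the Matrigel used for implantation, the enzymatic digestion of whole tumors and the separation of CD45+ and CD45− cells, which were remixed at a set ratio. The genotype was taken from the labels, as gene counts do not show the base change. With 1 library per group there is no replicate check between groups, cells are not replicates, and how many mice each library pooled was not given. Values for the 4 libraries are given with WT IgG and WT anti-PD1 first, followed by A159V IgG and then A159V anti-PD1, unless libraries are named.

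Arginase-1, the product of Arg1, hydrolyzes arginine to ornithine and urea, so it competes for arginine with inducible nitric oxide synthase (Nos2) and lowers the arginine available to T cells. In tumors, macrophages with high Arg1 derive largely from blood monocytes, and they are often found in hypoxic areas. The marker genes that came with the definition have different roles. Cxcl3 encodes a chemokine that attracts neutrophils, Inhba the subunit of activin A, Mmp12 macrophage elastase, and Pf4 platelet factor 4, a chemokine made by platelets and some macrophages.

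Arg1 macrophages held RNA of all 12 genes of a macrophage list, of which Lyz2, C1qa and Csf1r were used to choose the cells, while Adgre1, Cd68 and Apoe were not. The summed level was 9317, 5722, 7318 and 6475 UMIs per 1000000 UMIs of the class (CPM). It lay between 5521 and 6640 CPM in the cells classed below as Ly6c2 monocytes and between 9163 and 12103 CPM in those classed as Mrc1 macrophages, so this sum did not set Arg1 macrophages apart from monocytes in each library. In the lists of other cell types Cd3d, Cd3e, Cd3g, Csf3r and Hmga2 were at 0 by definition, so the sums for T cells, neutrophils and tumor cells are partly fixed by the rule. The summed level of T cell genes ranged from 0.828 to 20.4 CPM, of B cell genes from 7.65 to 21.5 CPM and of natural killer cell genes from 1.63 to 20.4 CPM. Genes of dendritic cells summed to 19.9 to 51.0 CPM and those of mast cells to at most 4.88 CPM. Neutrophil genes summed to 74.2 to 510 CPM, tumor cell genes to 4.88 to 296 CPM, endothelial genes to 63.7 to 208 CPM and monocyte genes to 1932 to 4257 CPM. Fibroblast genes stood out, at 5220, 14127, 56.1 and 87.0 CPM. At least 3 UMIs of Col1a1, Col1a2, Col3a1 and Dcn were found in 3.51%, 51.2%, 0.917% and 1.43% of Arg1 macrophages. The shares were 3.18%, 53.5%, 2.18% and 1.75% in their counterparts without Arg1, so the WT anti-PD1 library stood apart in both classes. The macrophage list summed to 6869, 1901, 5751 and 5644 CPM in these counterparts, and fibroblast genes to 1145, 47640, 1093 and 2345 CPM. In WT anti-PD1 the counterparts thus held less macrophage RNA and more fibroblast RNA than the Arg1 macrophages. The part of fibroblast RNA in the levels below was not tested beyond leaving out cells with at least 3 UMIs of Col1a1, Col1a2, Col3a1 and Dcn. Arg1 macrophages had a median of 4441.5, 3639, 2723 and 3666 UMIs per cell, and they held 687365, 614837, 392323 and 1207531 UMIs in all. Pairs of libraries shared 13 to 22 barcodes, and 1 Arg1 macrophage had such a barcode.

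Arg1 itself, used to choose the cells, was at 1031, 2090.0, 1596 and 2571 CPM in Arg1 macrophages. Its gene lies on chromosome 10 (GRCm38, 24915221 to 24927484, minus strand). The marker genes were chosen with earlier results of these data known, so their levels are a description. Cxcl3 (chromosome 5, 90786103 to 90789600, plus strand) was at 332, 289.5, 1019.6 and 1223 CPM in Arg1 macrophages and at 23.2, 14.9, 37.8 and 38.6 CPM in the Arg1-negative counterparts, the cells that met every other criterion but had 0 UMIs of Arg1. The ranges of Cxcl3 did not overlap, and the A159V libraries were the highest. Inhba (chromosome 13, 16011851 to 16031621, plus strand) was at 189, 200.1, 520.0 and 307 against 32.3, 34.5, 39.3 and 53.2 CPM. Mmp12 (chromosome 9, 7344381 to 7369499, plus strand) was at 1139, 2449, 4333 and 1777 against 53.1, 158, 129.6 and 139.7 CPM, and Pf4 (chromosome 5, 90772435 to 90773383, plus strand) at 867, 851, 2638 and 1257 against 69.7, 68.0, 186 and 65.3 CPM. All 4 genes were higher in Arg1 macrophages of every library, and Inhba, Mmp12 and Pf4 were highest in A159V IgG. Single cells weighed on Mmp12, since 1 cell held 29.2% of its UMIs in WT anti-PD1 and 1 cell 23.6% in A159V anti-PD1.

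**Figure D1:**
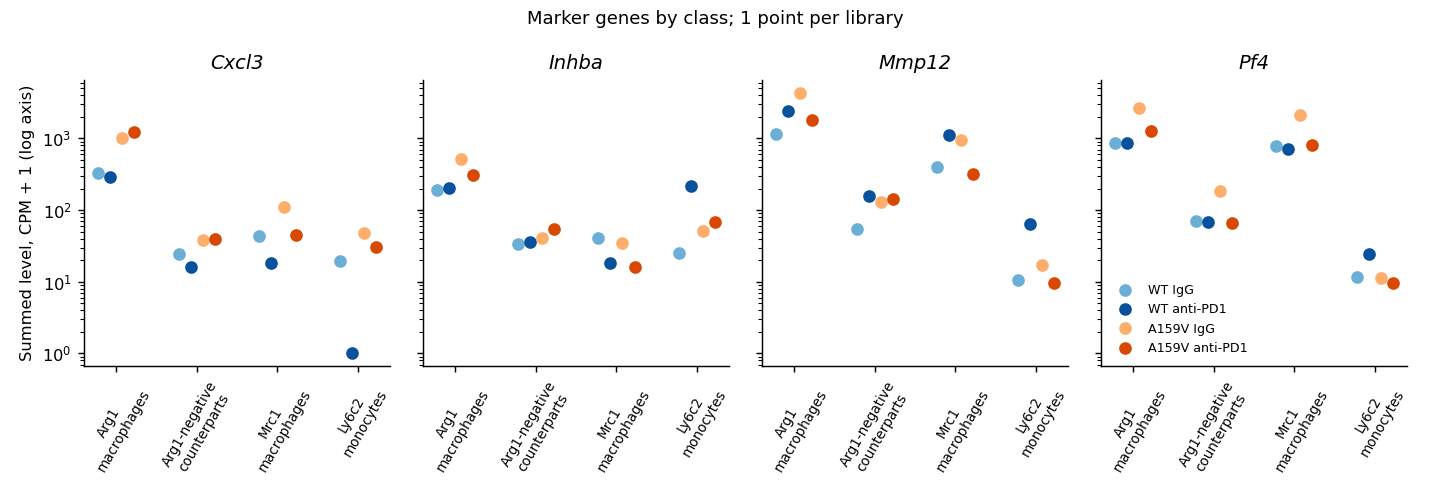
Level of Cxcl3, Inhba, Mmp12 and Pf4 (CPM + 1, log axis) in Arg1 macrophages, Arg1-negative counterparts, Mrc1 macrophages and Ly6c2 monocytes, with 1 point per library. Arg1 macrophages lay above the counterparts for all 4 genes, and Pf4 lay close between Arg1 and Mrc1 macrophages (867 against 780 CPM in WT IgG).

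Promoters of 11 genes that were higher in Arg1 macrophages were searched for 3 short elements, and 6 of those with a match are shown because they share these elements with each other. Those of the markers Inhba and Pf4 and of the hypoxia gene Vegfa held none of the 3 and are not shown, and neither are those of Hilpda, which held the NF-kappaB element only, and Cxcl1. Each is the 250 bases before the start of the RefSeq transcript in GRCm38.p6, 5′ to 3′ on the strand of the gene. Capitals mark matches, on either strand, of the AP-1 element TGANTCA, the hypoxia response core ACGTG or the NF-kappaB element, GGG and TTCC with 3 bases of any kind between them, where N is any base, and touching matches run together. The chemokine promoters are those of Cxcl3 (chr5:90785851-90786100, plus strand) and Cxcl2 (chr5:90903649-90903898, plus strand), the metalloproteinase promoters those of Mmp12 (chr9:7347124-7347373, plus strand) and Mmp13 (chr9:7272264-7272513, plus strand), and Il1a (chr2:129309973-129310222, minus strand) and Egln3 (chr12:54203875-54204124, minus strand) stand for the cytokine and hypoxia genes.
Cxcl3: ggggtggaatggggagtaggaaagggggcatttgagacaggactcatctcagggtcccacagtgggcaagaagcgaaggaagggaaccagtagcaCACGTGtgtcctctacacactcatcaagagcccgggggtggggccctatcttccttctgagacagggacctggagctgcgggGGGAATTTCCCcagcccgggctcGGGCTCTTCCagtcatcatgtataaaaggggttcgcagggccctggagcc
Cxcl2: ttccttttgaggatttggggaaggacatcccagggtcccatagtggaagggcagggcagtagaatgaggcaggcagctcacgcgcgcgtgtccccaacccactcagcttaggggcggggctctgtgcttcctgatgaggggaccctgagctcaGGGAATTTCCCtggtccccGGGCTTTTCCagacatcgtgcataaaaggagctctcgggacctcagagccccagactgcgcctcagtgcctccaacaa
Mmp12: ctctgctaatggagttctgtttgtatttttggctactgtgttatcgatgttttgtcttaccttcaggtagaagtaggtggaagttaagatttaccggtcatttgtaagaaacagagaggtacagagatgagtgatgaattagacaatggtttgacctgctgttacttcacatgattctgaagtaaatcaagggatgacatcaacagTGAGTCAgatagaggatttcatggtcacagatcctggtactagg
Mmp13: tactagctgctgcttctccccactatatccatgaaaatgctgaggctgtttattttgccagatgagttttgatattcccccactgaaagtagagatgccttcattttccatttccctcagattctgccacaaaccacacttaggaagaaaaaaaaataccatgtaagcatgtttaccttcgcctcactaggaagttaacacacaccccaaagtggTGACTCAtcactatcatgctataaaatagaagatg
Il1a: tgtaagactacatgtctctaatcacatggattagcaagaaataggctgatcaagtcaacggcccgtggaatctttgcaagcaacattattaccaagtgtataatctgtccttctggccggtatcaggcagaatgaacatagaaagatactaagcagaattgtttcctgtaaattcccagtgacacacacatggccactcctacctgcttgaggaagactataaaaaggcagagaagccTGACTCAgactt
Egln3: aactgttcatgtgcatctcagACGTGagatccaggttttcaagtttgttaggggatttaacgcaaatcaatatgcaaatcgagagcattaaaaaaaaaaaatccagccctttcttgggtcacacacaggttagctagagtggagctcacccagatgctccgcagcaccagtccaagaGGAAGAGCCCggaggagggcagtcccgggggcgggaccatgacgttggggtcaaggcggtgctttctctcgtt

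The Mmp12, Mmp13 and Il1a promoters held the AP-1 element with its first base 44, 35 and 12 bases before the start. Cxcl3 and Cxcl2 held the NF-kappaB element, in overlapping matches from 73 and 97 bases before the start and again at 50 and 78 bases. Cxcl3 also held ACGTG on both strands from 155 bases before the start, and Egln3 held both ACGTG (229 bases) and the NF-kappaB element (73 bases). The AP-1 element was found in 10.5% of promoters of the genes higher in Arg1 macrophages than in the counterparts, in 5.76% of those lower, in 4.72% of the genes tested and in 6.75% of all 32851 promoters. The NF-kappaB element was found in 8.14%, 2.88%, 4.95% and 4.65% of the same sets. ACGTG was found in 22.0%, 14.0%, 22.3% and 16.6%, and in 8 of 13 promoters (61.5%) of 10 hypoxia genes that were higher, as a gene can have several RefSeq starts. These shares describe letters in these windows and were not tested, and RefSeq promoters were found for 277 of the 364 genes that were higher.

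Cells on either side of the limit of 2 UMIs of Arg1 were compared. Just outside it, 65, 59, 65 and 105 cells had exactly 1 UMI of Arg1 and met the other criteria. Just inside it were 33, 23, 29 and 43 cells with 2 UMIs. Cxcl3 was at 45.2, 26.4, 185 and 147 CPM in the former and 449, 9.21, 1708 and 477 CPM in the latter, higher inside the limit except in WT anti-PD1. Mmp12 was at 166, 390.1, 1219.7 and 751 CPM with 1 UMI and 161, 359, 3321 and 865 CPM with 2, so only A159V IgG and A159V anti-PD1 were higher inside the limit. Pf4 was at 240.1, 66.1, 813 and 427 and 639.7, 681, 3545 and 399 CPM and Inhba at 33.3, 26.4, 214 and 78.5 and 92.8, 9.21, 469.8 and 109 CPM, with the same order of 1 and 2 UMIs as Cxcl3 for Inhba and all libraries but A159V anti-PD1 higher inside the limit for Pf4. The limit on Csf3r alone left out 45, 52, 24 and 70 cells that met all other criteria, and the limit on Lyz2, C1qa and Csf1r 65, 56, 79 and 186.

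Arg1 macrophages were a larger share of the myeloid cells in the anti-PD1 libraries than in the IgG libraries. There were 114, 127, 109 and 280 of them among 1738, 1294, 1790 and 2214 gated myeloid cells, the cells that met the criteria other than those on Arg1 and Mrc1. The share was 6.56% (5.44 to 7.83, 95% exact binomial interval), 9.81% (8.25 to 11.6), 6.09% (5.03 to 7.30) and 12.6% (11.3 to 14.1). The share in WT anti-PD1 was 1.5 times that in WT IgG (1.17 to 1.91, Katz interval), and the share in A159V anti-PD1 was 2.08 times that in A159V IgG (1.68 to 2.57). Between the IgG libraries the ratio A159V over WT was 0.928 (0.720 to 1.20). The intervals cover counting error only, and the anti-PD1 ratios rest on different control libraries. When cells with at least 2000 UMIs were thinned to 2000, the ratios were 3.62 in WT, 1.78 in A159V and 1.41 between the IgG libraries. The order of the 2 IgG libraries thus turned. Thinning left out 1354, 1673, 2286 and 2126 cells with fewer UMIs. It left 1500, 1016, 1077 and 1835 gated myeloid cells, so the libraries lost unlike numbers of shallow cells. The criteria, with the limit on Mrc1, were applied again to the thinned counts, so cells could enter or leave the class. WT anti-PD1 then had 184 Arg1 macrophages among 1016 gated myeloid cells, so these ratios are not shares of the same cells at equal depth. Among all cells the shares were 1.56%, 1.86%, 1.34% and 3.15%, which depend on the remixing of CD45+ and CD45− cells.

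The limit on Mrc1 mattered most in WT anti-PD1. Cells with at least 2 UMIs of both Arg1 and Mrc1 were 4.66%, 38.4%, 5.14% and 9.62% of gated myeloid cells (81, 497, 92 and 213 cells). Of the gated myeloid cells with at least 2 UMIs of Arg1, 41.5%, 79.6%, 45.8% and 43.2% also had at least 2 UMIs of Mrc1. With no limit on Mrc1 the share was 11.2%, 48.2%, 11.2% and 22.3%, and the ratio of WT anti-PD1 over WT IgG was 4.30 (3.72 to 4.96). In the cells with both, Inhba was at 33.4, 32.5, 39.6 and 82.9 CPM, below the Arg1 macrophages of every library, while Pf4 was at 2239, 1704, 5208 and 3459 CPM, above them. Cxcl3 was at 580.3, 85.2, 501 and 929.9 CPM in the cells with both, higher than in Arg1 macrophages in WT IgG and lower in the other 3 libraries.

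**Figure D2:**
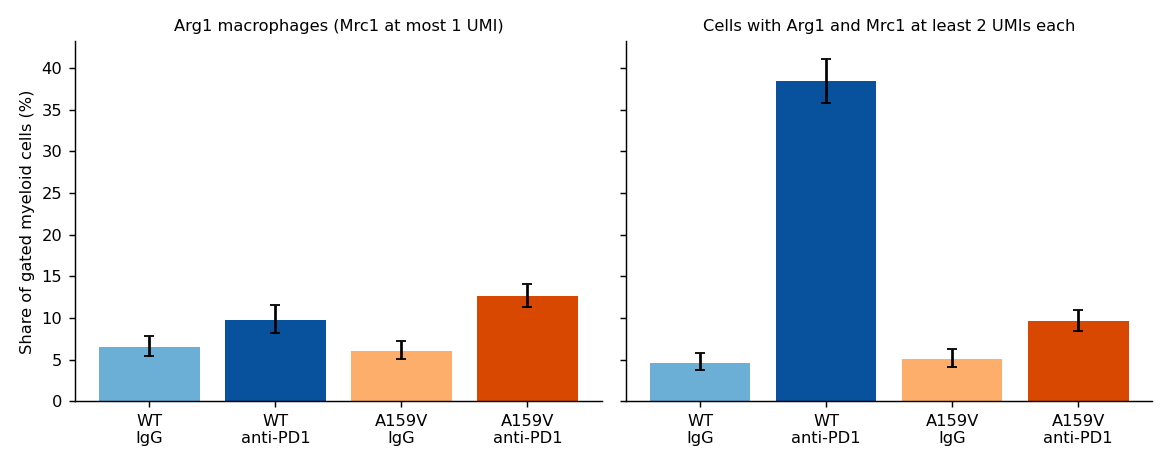
Share (percent of gated myeloid cells) of Arg1 macrophages and of cells with at least 2 UMIs of both Arg1 and Mrc1 in the 4 libraries, as bars from 0 with 95% exact binomial intervals. Arg1 macrophages were 6.56%, 9.81%, 6.09% and 12.6%, and the cells with both were 38.4% in WT anti-PD1.

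Arg1 macrophages were compared gene by gene with 4322 Arg1-negative counterparts, with UMIs summed per class and library and the library as a block. Of 9722 genes tested, 364 (3.74%) were at least 2-fold higher in Arg1 macrophages at an adjusted p under 0.05 (edgeR's quasi-likelihood test with Benjamini-Hochberg adjustment), and 229 (2.36%) were lower. Among these, 44 of the higher and 115 of the lower genes may hold stray RNA. In some library they were over 5 times higher in gated tumor, T, neutrophil, fibroblast or endothelial cells. The part of stray RNA in these differences was not tested. Without A159V anti-PD1, which held the most Arg1 macrophages, 1.67% of genes were higher and 0.525% lower, and without A159V IgG 220 and 93 genes. The cells were classed by Arg1, so genes that go with Arg1 from cell to cell had to differ, and the test says only how steady the difference was over the 4 libraries. Log2 folds below are given with the standard error of this fit over the 4 libraries, and the median over all genes tested was −0.06. Counterparts had fewer UMIs per cell, with a median of 3249, 3106.5, 2262 and 2972.5, and 1321, 258, 1373 and 1370 of them were available, of which 597, 32, 613 and 655 were Ly6c2 monocytes. With counterparts matched on UMIs per cell, 221 genes were higher. The WT anti-PD1 counterparts also held more fibroblast RNA than the Arg1 macrophages of that library, as given above. Without the cells with at least 3 fibroblast UMIs 334 genes were higher and 238 lower.

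**Figure D3:**
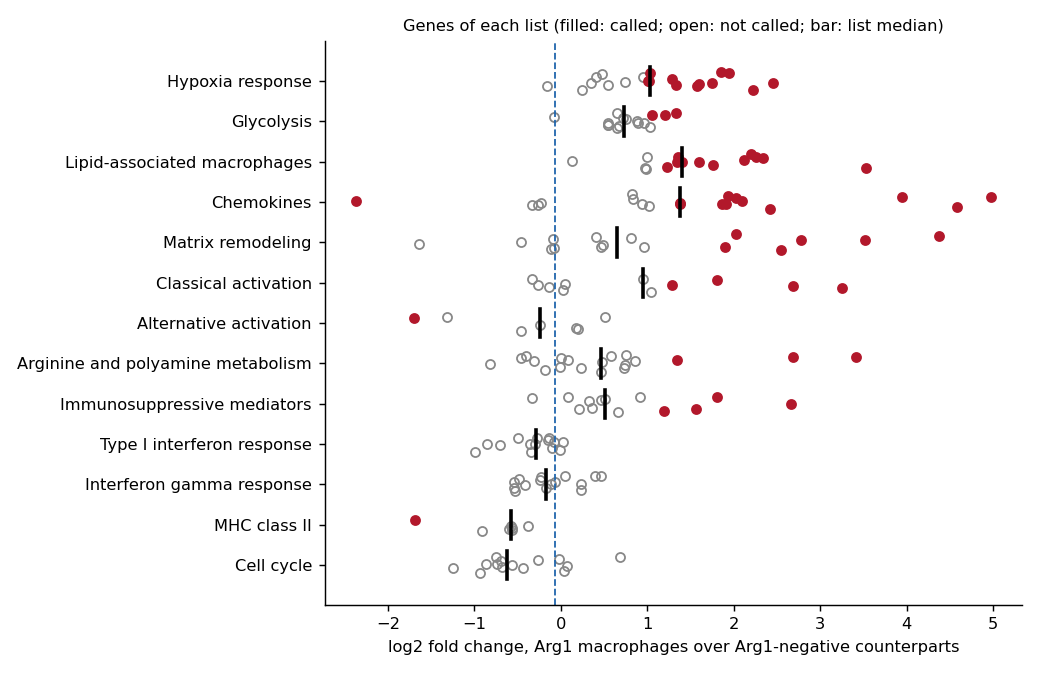
Log2 fold of Arg1 macrophages over Arg1-negative counterparts for each tested gene of 13 gene lists, where filled points passed the call, bars are list medians and the dashed line is the median of all genes (−0.06). Hypoxia, lipid-associated and chemokine genes lay mostly to the right (medians 1.03, 1.40 and 1.38), and the interferon lists lay around the line.

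Among genes of arginine and polyamine metabolism, 3 of 19 tested were higher in Arg1 macrophages and the others did not pass (median 0.46). Slc7a2, which encodes a cationic amino acid transporter that imports arginine, was at 100.4, 335, 94.3 and 134 CPM in Arg1 macrophages against 5.39 to 30.4 CPM in the counterparts, a log2 fold of 3.41 ± 0.26 (edgeR adjusted p = 0.000428). Nos2, which makes nitric oxide from the same amino acid, was at 100.4, 343, 135 and 573 against 22.3 to 102 CPM (log2 fold 2.69 ± 0.19, edgeR adjusted p = 0.000426). The classes did not overlap for Slc7a2, and every library had more Nos2 in Arg1 macrophages than in its own counterparts. Arg2, the mitochondrial arginase, was the other gene that passed (1.34 ± 0.27, edgeR adjusted p = 0.0183).

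Chemokine genes were among those with the largest differences, with 11 of 19 tested higher, 1 lower and a median log2 fold of 1.38. Cxcl2, which like Cxcl3 attracts neutrophils, was at 5319, 5520.2, 7953 and 8671 CPM against 1082 to 1495 CPM in the counterparts (2.42 ± 0.19, edgeR adjusted p = 0.000505). Its levels did not overlap between the classes. Cxcl1, of the same family, followed at 1.91 ± 0.29. The platelet-type chemokine Ppbp had a log2 fold of 4.97 ± 0.41 beside Pf4 at 3.95 ± 0.19 and Cxcl3 at 4.58 ± 0.24, where the last 2 had been chosen as markers. Ppbp passed the call but missed a further limit of the naming rule, on level, direction in 4 libraries or other cell classes. Other genes of platelets were near 0, with 1, 12, 0 and 3 UMIs of Itga2b, Gp9, Gp1bb, Treml1 and Tubb1 together in Arg1 macrophages, while 56, 58, 78 and 151 of these cells had a UMI of Pf4 or Ppbp. Among chemokines for monocytes, Ccl7 (1.94 ± 0.20), Ccl8 (2.03 ± 0.43), Ccl2 (1.38 ± 0.17) and Ccl12 (1.38 ± 0.27) were higher. Cxcl14 was the gene that was lower (−2.36 ± 0.58), and 0 chemokine genes were lower without WT anti-PD1, A159V IgG or A159V anti-PD1, without doublets, without the cells with fibroblast UMIs, with counterparts matched on UMIs and with no library block. Cxcl9 and Cxcl10, which attract activated T cells, did not pass the test (−0.27 and −0.33).

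Of 16 matrix remodeling genes, 6 were higher and the others did not pass (median 0.65). Mmp13, a collagenase, was at 147, 161, 622 and 388 CPM against 20.3 to 33.4 CPM (3.52 ± 0.27, edgeR adjusted p = 0.000428), with the A159V libraries highest. Mmp8, a collagenase that neutrophils also make, was higher by 2.78 ± 0.20, and the sheddase gene Adam8 by 2.03 ± 0.16. Serpinb2, which encodes a protease inhibitor of the serpin family, was higher by 2.55 ± 0.36. Inhba passed as 1 of 11 genes of a TGF-beta and activin list (median 0.11), and Tgfb1 did not pass (0.09).

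Hypoxia response genes, which are targets of the HIF transcription factors, were higher in Arg1 macrophages for 12 of 20 tested, and the others did not pass (median 1.03). Hilpda, which acts on lipid droplets, was at 626, 319, 1471 and 955 CPM against 57.7 to 321 CPM in the counterparts (2.22 ± 0.16, edgeR adjusted p = 0.000426). Egln3, an oxygen-sensing prolyl hydroxylase, was at 88.7, 127, 119.8 and 151 against 11.8 to 32.2 CPM (2.46 ± 0.25, edgeR adjusted p = 0.00148). Vegfa, the main growth factor for blood vessels, was at 368, 493, 466 and 441 against 109 to 138 CPM (1.95 ± 0.16, edgeR adjusted p = 0.000544). Each of the 3 genes was higher in Arg1 macrophages of all 4 libraries. Bnip3 (1.86 ± 0.20), which acts in mitophagy, and Ndrg1 (1.75 ± 0.18) also passed. The count of hypoxia genes was 9 with counterparts matched on UMIs and 7 with no library block. Of 16 glycolysis genes, Slc2a1, the glucose transporter GLUT1 (1.34 ± 0.18), Pgk1 (1.20 ± 0.20) and Gpi1 (1.06 ± 0.14) were higher (median 0.74), and 15 of the 16 were higher at an unadjusted p under 0.05.

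The list of lipid-associated macrophage genes, which serve the uptake, storage and lysosomal breakdown of lipids and debris, had 11 of 15 genes higher, and the others did not pass (median 1.40). Cd36, a scavenger receptor for fatty acids, was at 186, 942, 257 and 394 CPM against 20.2 to 53.1 CPM (3.53 ± 0.30, edgeR adjusted p = 0.000544). Trem2, a lipid-sensing receptor, was at 196, 87.8, 206 and 143 against 20.6 to 48.2 CPM (2.12 ± 0.14, edgeR adjusted p = 0.000426). Fabp5, a fatty acid carrier, was at 1071, 1221, 5903 and 2357 against 232 to 757 CPM (2.34 ± 0.26, edgeR adjusted p = 0.00181). Cd36 was highest in WT anti-PD1 and Fabp5 in A159V IgG, and Cd36 did not overlap between the classes. Gpnmb (2.20 ± 0.18), Lpl (1.59 ± 0.16) and the lysosomal protease genes Ctsl (2.26 ± 0.19) and Ctsd (1.76 ± 0.15) passed as well, whereas Spp1, osteopontin, had a log2 fold of 0.99 ± 0.21 and did not. The count ranged from 6 to 14 over the alternative settings.

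Genes of classical activation were higher for 4 of 11 (median 0.95). Of those of alternative activation, the program in which Arg1 itself is usually counted, 1 of 7 was lower and the others did not pass (median −0.24). Il1a, an alarm cytokine, was at 102, 119, 293 and 305 CPM against 18.5 to 23.6 CPM (3.26 ± 0.33, edgeR adjusted p = 0.00148). Ptgs2, which makes prostaglandins, was higher by 1.81 ± 0.19 and Tnf by 1.29 ± 0.26, and Nos2 was the fourth. Il1b was at 1341, 1015, 2536 and 2310.5 CPM against 1103, 549, 851 and 1450.5 CPM and did not pass (0.95). Chil3, the alternative activation gene for a chitinase-like protein, was at 102, 21.1, 28.0 and 149 CPM against 296, 27.3, 327 and 485 CPM (−1.70 ± 0.38, edgeR adjusted p = 0.0277), lower in each library. Chil3 did not pass when WT IgG was left out (edgeR adjusted p = 0.0558), nor without A159V IgG (0.0654) or A159V anti-PD1 (0.145). Of the immunosuppressive mediators, 4 of 13 were higher (median 0.51), namely Hmox1, heme oxygenase 1, at 1450.5, 2061, 1287 and 2668 against 185 to 422 CPM (2.66 ± 0.28, edgeR adjusted p = 0.00163), Il10 (1.57 ± 0.37), Il1rn (1.20 ± 0.19) and Ptgs2, with a count of 2 without A159V IgG or without A159V anti-PD1. Cd274, which encodes the PD1 ligand PD-L1, was at 393, 514, 566 and 819.9 CPM and did not pass (0.46).

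Of the macrophage genes, 5 of the 9 that were not used to choose the cells were higher (median 1.11), with Cd14 at 1.42 ± 0.15, Apoe at 1.40 ± 0.17, Mertk at 1.30 ± 0.24, C1qc at 1.19 ± 0.22 and Cd68 at 1.11 ± 0.19. None of these 9 genes passed in edgeR with counterparts matched on UMIs per cell (median 0.58), 3 passed without WT anti-PD1 or without the cells with fibroblast UMIs and 2 without A159V anti-PD1, whereas DESeq2 called 5. Monocyte genes were lower for 2 of 7 (median −0.78), among them Vcan, a matrix proteoglycan (−1.16 ± 0.16), and the count was 4 without WT anti-PD1 and 1 without A159V anti-PD1. Of genes typical of resident-type macrophages 3 of 6 were higher (Folr2 2.69, F13a1 2.05 and Stab1 1.89) and 1 was lower (Gas6 −2.14), with a median of 1.44. Among myeloid transcription factors 3 of 18 were higher (median 0.35), among them Egr2 (1.73 ± 0.24) and Klf4 (1.39 ± 0.16). The cystine transporter gene Slc7a11 (1.31 ± 0.21) was the higher 1 of 14 genes of ATF4 and amino acid stress (median 0.18), with 0 higher without A159V IgG or A159V anti-PD1, without the cells with fibroblast UMIs and with no library block. Cell cycle genes passed edgeR's test for 0 of 14 (median −0.63), with 1 higher and 6 lower at an unadjusted p under 0.05 and 1 lower by DESeq2. In edgeR 3 were lower without WT IgG or with no filter on low counts, and 5 with at least 3 UMIs of Arg1 required.

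Interferon response genes did not pass the test. Of 14 type I interferon response genes and 15 interferon gamma response genes, 0 passed in either direction by edgeR or DESeq2 (medians −0.28 and −0.17), and 3 and 2 were lower at an unadjusted p under 0.05. Without WT anti-PD1, 2 type I and 1 interferon gamma gene passed as lower. Of 7 genes of MHC class II presentation, which shows peptides to CD4 T cells, Ciita, the regulator of the class II genes, was lower (−1.69 ± 0.23, edgeR adjusted p = 0.00433) and the others did not pass (median −0.57). At an unadjusted p under 0.05 in edgeR, 5 of the 7 were lower and 0 higher. The list summed to 3397, 6135, 451 and 3268 CPM against 4650, 7911, 1679 and 3704 CPM, lower in each library. H2-Aa was at 754, 1191, 73.9 and 713 CPM against 934, 1630.1, 336 and 769.7 CPM and did not pass.

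The 10 highest folds by the naming rule were those of Cxcl3, Mmp12, Pf4, Cd36, Mmp13, Slc7a2, Jag1, Inhba, Pdpn and Mmp8. Jag1, a Notch ligand, was at 30.6, 107, 66.3 and 87.8 CPM against 4.39 to 13.4 CPM (3.13 ± 0.23), and Pdpn, podoplanin, at 256, 353, 482 and 548 against 26.2 to 168 CPM (2.91 ± 0.45). The 10 lowest were Rap1gap2 (−2.01), Ifitm6 (−2.0), Tppp3 (−1.91), Napsa (−1.88), Brinp3 (−1.76), Tmem176b (−1.71), Chil3, Grk3 (−1.62), Plcl1 (−1.58) and Fdps (−1.53). Ifitm6, a gene of monocytes and neutrophils, was at 37.8, 13, 28.0 and 43.9 CPM against 149, 27.3, 169 and 222 CPM, lower in each library. Napsa, an aspartic protease gene, was at 58.2, 21.1, 30.6 and 39.8 against 188, 66.5, 183 and 169 CPM. With counterparts matched on UMIs per cell, Brinp3 and Fdps did not pass (−0.44 and −0.48). Without A159V anti-PD1 the edgeR adjusted p was 0.0592 for Pdpn, 0.0616 for Brinp3 and 0.0649 for Tmem176b, and without A159V IgG it was 0.0611 for Tmem176b and 0.0647 for Fdps.

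Against 907 Mrc1 macrophages (157, 353, 151 and 246 cells with at least 2 UMIs of Mrc1 and at most 1 of Arg1), 251 of 7794 genes (3.22%) were higher in Arg1 macrophages and 126 (1.62%) were lower. By the same measure as above, 75 of the higher and 9 of the lower genes may hold stray RNA. Without A159V anti-PD1 the counts were 161 and 47. The classes were split by Mrc1 and Arg1, so genes that go with either from cell to cell had to differ. The test says only how steady the differences were over the 4 libraries. Hypoxia genes were higher for 15 of 19 (median 1.38, all genes 0.01), and glycolysis genes for 7 of 15 (median 0.97), which was 2 without A159V anti-PD1. Classical activation genes were higher for 6 of 11 (median 1.09). Nos2 was at 17.4, 44.4, 43.7 and 45.8 CPM in Mrc1 macrophages, below Arg1 macrophages in each library (3.02 ± 0.25, edgeR adjusted p = 4.57e-06), and Il1a (2.50 ± 0.23), Il6 (1.90 ± 0.27), Ptgs2 (1.79 ± 0.14), Tnf (1.16 ± 0.16) and Il1b (1.09 ± 0.15) completed the group. Matrix remodeling genes were higher for 7 of 15 (median 0.97), led by Serpinb2, which was at 88.7, 53.7, 133 and 185 CPM against 3.27, 13.2, 1.9 and 0.934 CPM (4.2 ± 0.49, edgeR adjusted p = 7.89e-05). The groups did not overlap for Serpinb2. Chemokine genes were higher for 6 of 17 and lower for 1, Ccl8 (median 0.50), with 0 lower without WT anti-PD1 or A159V anti-PD1, with no library block and by DESeq2. Pf4 was at 780.4, 705, 2104 and 808 CPM in Mrc1 macrophages and did not pass (0.50).

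Genes lower than in Mrc1 macrophages, which were chosen by Mrc1, included those of alternative activation and antigen presentation. Mgl2, a lectin gene of alternatively activated macrophages, was at 7.27, 6.51, 5.1 and 6.63 CPM against 21.8, 285, 47.5 and 77.5 CPM (−3.69 ± 0.40, edgeR adjusted p = 4.09e-05), and with Retnla (−1.94 ± 0.48) it made 2 of 7 alternative activation genes lower (median −0.77), a count of 5 without WT IgG and of 1 without WT anti-PD1 or A159V anti-PD1. MHC class II genes were lower for 4 of 7 (median −1.06), with all 7 lower at an unadjusted p under 0.05. DESeq2 called 2 of them, and edgeR called 0 without A159V anti-PD1 and 2 without WT anti-PD1 or A159V IgG. The scavenger receptor gene Cd36 (1.98 ± 0.29), the tetraspanin gene Cd9 (1.70 ± 0.17) and Spp1 (1.46 ± 0.18) were the higher 3 of 15 lipid-associated genes (median 0.51), of which 5 were higher without WT anti-PD1. Hmox1, Ptges, Ptgs2 and Trem1 were the higher 4 of 13 immunosuppressive mediators (median 0.52). Neither interferon list had a gene that passed edgeR or DESeq2, and 2 type I and 4 interferon gamma genes were higher at an unadjusted p under 0.05. By the naming rule Serpinb2, Cxcl3 (3.94), Inhba (3.61), Agbl3 (3.29) and Nos2 were highest, and Mgl2, Tbc1d4 (−2.69), Fcgrt (−2.57), the neonatal Fc receptor gene, Pdgfc (−2.06) and Lrmp (−2.02) lowest.

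Against 1897 Ly6c2 monocytes (597, 32, 613 and 655 cells with at least 2 UMIs of Ly6c2 and 0 of C1qa, Arg1-negative counterparts themselves), 454 of 7677 genes (5.91%) were higher in Arg1 macrophages and 505 (6.58%) were lower. By the same measure as above, 71 of the higher and 59 of the lower genes may hold stray RNA. The gate on C1qa and Ly6c2 also separates the classes by maturity. The counts were 298 and 396 without A159V anti-PD1. Lipid-associated genes were higher for 13 of 15 (median 2.15, all genes 0.04), matrix remodeling genes for 8 of 15 (median 1.45) and hypoxia genes for 12 of 19 (median 1.18). Glycolysis genes passed for 0 of 15 by edgeR or DESeq2 (median 0.52), with 9 higher and 1 lower at an unadjusted p under 0.05. Chemokine genes were higher for 11 of 17, and Ccl5 and Cxcl10 were lower (median 1.16), with 1 lower without A159V anti-PD1. Of the type I interferon genes 8 of 14 were lower (median −1.11), with 5 lower without A159V IgG and 3 to 10 over the alternative settings. Ifit3, an interferon-induced antiviral gene, was at 272, 21.1, 153 and 142 CPM in Arg1 macrophages against 815, 109, 838 and 462 CPM in the monocytes (−1.99 ± 0.19, edgeR adjusted p = 0.000135). Interferon gamma genes were lower for 3 of 15 (median −0.88), a count of 0 in edgeR without WT IgG and of 7 without WT anti-PD1, with 12 lower at an unadjusted p under 0.05. Monocyte genes were lower for 5 of 6 (median −1.95), in a comparison that was itself gated on Ly6c2. The highest named folds were those of Mmp12 (7.2), Pf4 (6.97), Mmp13 (5.15), Ccl8 (4.82) and Cxcl3 (4.66), and the lowest included those of Adgre4 (−3.71), Arhgef37 (−3.25), Ifitm6 (−3.19) and Dmkn (−3.14).

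Arg1 macrophages also differed between libraries. These comparisons set 1 library against 1 other, so they have no test, and a difference cannot be told apart from a difference between those tumors or preparations. Differences are log2 ratios of CPM with 1 CPM added, with 95% intervals for counting error only. A gene counts as higher or lower if it differs at least 2-fold and reaches 50 CPM in 1 of the 2 libraries. Among 3922 genes, 150 (3.82%) were higher and 254 (6.48%) lower for A159V IgG over WT IgG. Among 4093 genes, 441 (10.8%) were higher and 318 (7.77%) lower for WT anti-PD1 over WT IgG. Among 3814 genes, 167 (4.38%) were higher and 145 (3.8%) lower for A159V anti-PD1 over A159V IgG. The comparisons share control libraries. The median over all genes lay between −0.01 and 0.02.

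Genes of antigen presentation differed between the libraries. In Arg1 macrophages H2-Aa, a class II chain gene, was at 754, 1191, 73.9 and 713 CPM and H2-Eb1, another, at 564, 898, 48.4 and 491 CPM. Cd74, the invariant chain that guides class II molecules, was at 1368, 2797, 199 and 1389 CPM. The A159V IgG library was the lowest for all 3 genes and WT anti-PD1 the highest. In A159V IgG over WT IgG, 6 of 6 class II genes were lower (median −2.80), with H2-Aa at −3.33 (−3.87 to −2.80) and Cd74 at −2.78 (−3.11 to −2.44). In A159V anti-PD1 over A159V IgG, 5 of 5 were higher (median 2.82), with H2-Aa at 3.25 (2.73 to 3.78), H2-Eb1 at 3.32 (2.67 to 3.96) and Cd74 at 2.80 (2.47 to 3.12). In WT anti-PD1 over WT IgG, 1 of 6 was higher, Cd74 at 1.03 (0.92 to 1.15), and 0 were lower (median 0.66). The counterparts held the same order of the libraries for H2-Aa, at 934, 1630.1, 336 and 769.7 CPM, with smaller differences (−1.47 for A159V IgG over WT IgG and 1.19 for A159V anti-PD1 over A159V IgG).

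The share of Arg1 macrophages with class II RNA moved with these levels. After thinning to 2000 UMIs, which left 110, 101, 88 and 248 Arg1 macrophages, 70%, 77.2%, 27.3% and 55.6% had a UMI of H2-Aa, H2-Ab1, H2-Eb1 or Cd74. The shares were 62.0%, 61.7%, 43.5% and 53.8% in the Arg1-negative counterparts and 59.9%, 82.2%, 38.5% and 73.9% in Mrc1 macrophages. In T cells, which should lack these genes in mice, 17.7%, 18.4%, 13.5% and 17.6% had such a UMI, so the share in A159V IgG lay nearest to that background. T cells had a median of 3370.5, 3788, 2331 and 2779 UMIs before thinning.

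Genes induced by interferon gamma, which drives class II in macrophages, differed in the same libraries. Gbp2, a guanylate-binding protein gene, was at 134, 563, 43.3 and 435 CPM and Gbp4 at 23.3, 177, 12.7 and 127 CPM, and Irf1, the transcription factor, was at 229.9, 451, 168 and 392 CPM. All 3 were lowest in A159V IgG. In A159V anti-PD1 over A159V IgG, 10 of 15 genes of the list were higher and 0 lower (median 1.24), with Gbp2 at 3.30 (2.62 to 3.98), Gbp4 at 3.22 (2.02 to 4.41), Iigp1 at 2.54 (1.76 to 3.33) and Irf1 at 1.21 (0.84 to 1.58). In WT anti-PD1 over WT IgG, Gbp2 (2.06), Gbp4 (2.88) and Gbp7 (1.01) were the higher 3 of 15 and 0 were lower (median 0.83). In A159V IgG over WT IgG, 4 of 12 were lower and 0 higher (median −0.59). The list summed to 2207, 3572, 1761 and 3858 CPM in Arg1 macrophages and 3535, 2125, 2664 and 4280 CPM in the counterparts. It summed to 2718, 2355, 2226 and 2878 CPM in Mrc1 macrophages and 4400, 4421, 3711 and 5375 CPM in Ly6c2 monocytes. A159V anti-PD1 thus lay above A159V IgG in each class. WT anti-PD1 lay below WT IgG in the counterparts and Mrc1 macrophages. Cxcl9, a chemokine gene induced by interferon gamma, was at 121, 137, 2.55 and 101 CPM. A159V IgG held a single UMI of Cxcl9, and the log2 ratio of A159V anti-PD1 to it was 4.85 (2.80 to 6.89).

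**Figure D4:**
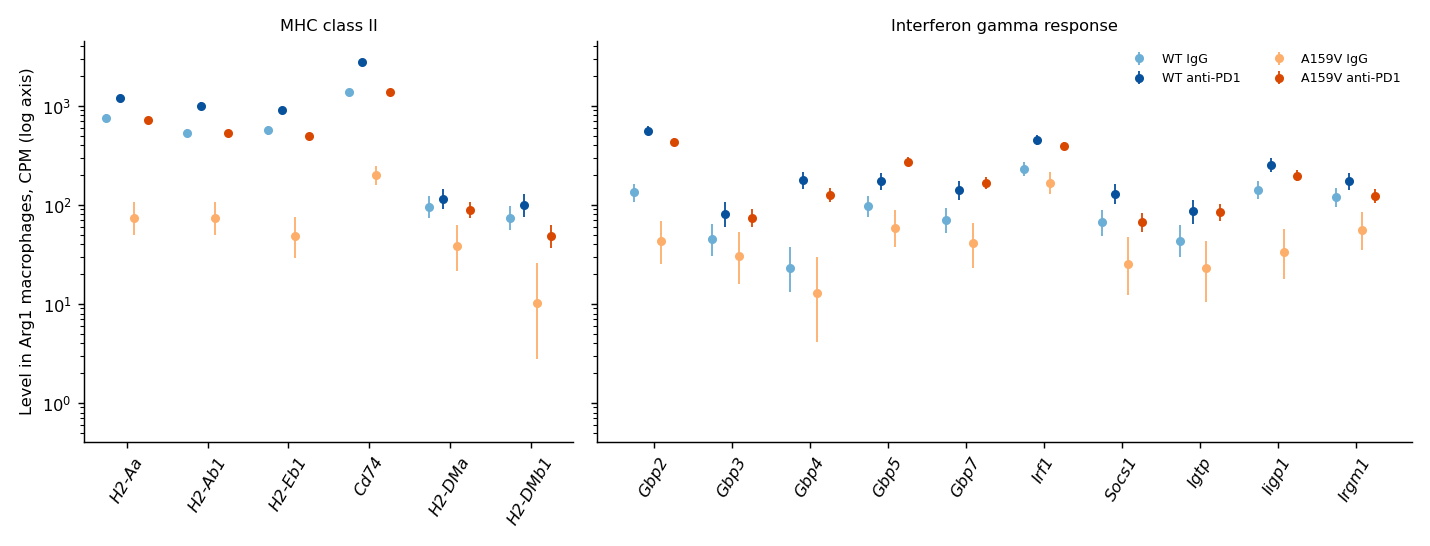
Level (CPM, log axis) in Arg1 macrophages of 6 MHC class II genes and 10 interferon gamma response genes in the 4 libraries, with 95% Poisson intervals for counting error. A159V IgG lay lowest for the class II genes shown, with H2-Aa at 73.9 CPM against 713 to 1191 CPM in the other libraries.

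Type I interferon genes took another pattern, with WT anti-PD1 the lowest. This order was not particular to Arg1 macrophages, where the list summed to 5850, 2532, 4254 and 4874 CPM. The sums were 8217, 1706, 8428 and 6897 CPM in the counterparts and 5551, 1623, 5916 and 4162 CPM in Mrc1 macrophages. In Ly6c2 monocytes they were 11432, 4172, 11917 and 9214 CPM, so WT anti-PD1 was lowest in each class. Ifit3 was at 272, 21.1, 153 and 142 CPM, Isg15, a ubiquitin-like modifier, at 1184, 296, 808 and 849 CPM, and Usp18, which removes it, at 121, 24.4, 94.3 and 62.1 CPM. In WT anti-PD1 over WT IgG, 9 of 14 genes were lower and 0 higher (median −1.20), with Ifit3 at −3.62 (−4.40 to −2.85), Isg15 at −2.0 (−2.23 to −1.77) and Usp18 at −2.26 (−3.03 to −1.50). In A159V IgG over WT IgG 2 of 14 were lower and 0 higher (median −0.47), and in A159V anti-PD1 over A159V IgG 0 passed the fold in either direction (median 0.14).

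In A159V IgG over WT IgG, the markers of Arg1 macrophages were themselves higher, a description because they were chosen with such results known, with Cxcl3 at 1.62, Inhba at 1.45, Mmp12 at 1.93 and Pf4 at 1.60. Fabp5 was at 2.46 (2.34 to 2.58), Mmp13 at 2.07 (1.74 to 2.41), Mmp8 at 1.81 (1.28 to 2.34) and Il1a at 1.52 (1.09 to 1.94). Ncoa4, a receptor for the autophagy of ferritin, was at 2.12 (1.31 to 2.93) and Fem1b, a ubiquitin ligase adaptor gene, at 2.0 (1.21 to 2.79). Matrix remodeling genes were higher for 3 of 15 and lower for 3 (median −0.04), chemokine genes higher for 3 of 16 and lower for 2 (median 0.17), and hypoxia genes higher for 2 of 18 and lower for 0 (median 0.38), namely Hilpda (1.23) and Adm (1.42). Of the genes named by rule, Gzmc, a granzyme gene, was higher in A159V IgG, but 90.9% of its 143 UMIs came from 1 cell that was marked as a doublet. Saa3 had 200 UMIs in WT IgG, 66.5% of them in 1 cell, and 0 in A159V IgG, which allows up to 7.65 CPM. The other named lower genes, Col1a1, Col5a2, Col12a1 and Lox, belong to the matrix of fibroblasts, and 53.6% of the Col1a1 UMIs of WT IgG came from 1 cell.

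In WT anti-PD1 over WT IgG, Nos2 was at 1.76 (1.37 to 2.15) and the arginine transporter gene Slc7a2 at 1.73 (1.34 to 2.12), in a list of arginine and polyamine genes where 4 of 12 were higher and 0 lower (median −0.04). Of the lipid-associated genes, 4 of 15 were higher, with Cd36 at 2.33 (2.06 to 2.61) and Lpl at 2.12 (1.71 to 2.53), and 3 were lower, with a list median of 0.19 and Spp1 at −1.91 (−2.08 to −1.74). Macrophage genes were lower for 4 of 9 and higher for 0 (median −0.75). Fam162a, a hypoxia-induced mitochondrial gene, was at −2.24, and Hist1h1b, a histone gene of dividing cells, at −2.44. Few cells stood behind the genes named as highest by the rule, Acta2, Adgrb3, C1qtnf3, Efna5 and Cilp, whose UMIs came from 3 to 8 cells of WT anti-PD1, with the cell that held the most marked as a doublet for each gene. Fibroblast genes were higher for 5 of 6 in the same comparison, and their part in these differences was not tested beyond leaving out the cells with at least 3 fibroblast UMIs. Without those cells C1qtnf3 and Efna5 turned in direction (−1.37 and −0.12). Nos2, Slc7a2, Cd36 and Lpl were then at 2.49, 1.88, 1.66 and 1.61, Spp1 was at −3.14, Ifit3 at −3.67 and Hist1h1b at −7.02. Hist1h1b was already low in WT anti-PD1 with all cells (21.1 against 119 CPM in WT IgG). The size of its ratio without those cells thus depends on the 1 CPM added.

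In A159V anti-PD1 over A159V IgG, Nos2 was also higher, at 2.08 (1.68 to 2.48), and the heme oxygenase gene Hmox1 was at 1.05 (0.92 to 1.19). Of 15 lipid-associated genes 3 were lower and 0 higher (median −0.31), with Fabp5 at −1.32 (−1.40 to −1.25). Classical activation genes were higher for 3 of 11 (Nos2, Il6 and Cxcl9) and lower for 0 (median 0.49). Fem1b (−1.90), the survival gene Bcl2a1b (−1.61) and the noncoding RNA gene Gas5 (−1.60) were among the named lower genes. Bcl2a1b has near-identical paralogs, so its count is uncertain. Shisal2b was lower too, with 57.7% and 62.3% of its UMIs in 1 cell of each library. S100a8 and S100a9, neutrophil genes, were higher, and 55.9% of the 152 S100a9 UMIs of A159V anti-PD1 came from 1 cell marked as a doublet.

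Arg1 macrophages varied among themselves. After thinning to 2000 UMIs, Cxcl3 was detected in 15.5%, 16.8%, 34.1% and 32.3% of them, Inhba in 9.09%, 19.8%, 26.1% and 21.4%, Mmp12 in 32.7%, 33.7%, 63.6% and 27.8% and Pf4 in 36.4%, 37.6%, 67.0% and 44.8%. Before thinning, Cxcl3 was detected in 21.9%, 18.9%, 39.4% and 38.2%. In T cells, which should lack these genes, Cxcl3 was detected in 0.439%, 1.06%, 0% and 0.484%, Mmp12 in 0.585%, 4.13%, 0.294% and 1.45% and Pf4 in 0.146%, 1.65%, 0% and 1.13%. All 3 lay above this background in each library. These T cells were gated to lack Lyz2, C1qa and Csf1r, so the background may be too low for macrophage genes. None of the 4 genes was detected in 45.5%, 34.7%, 5.68% and 28.2% of thinned Arg1 macrophages, and all 4 were detected in 10 of 547 (1.83%). The markers thus described the class as a whole more than its single cells, and A159V IgG had the fewest cells with none. The inducible nitric oxide synthase gene Nos2 was detected in 10.9%, 27.7%, 26.1% and 46.8% and Hilpda in 48.2%, 45.5%, 81.8% and 65.7%, beside 16.8%, 11.8%, 22.6% and 17.3% of T cells for the latter.

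Levels also moved with the number of Arg1 UMIs in the cell, which ranged from 2 to 141 with a median of 4, 6, 4 and 7. Over all libraries together, cells with 2, 3 to 4, 5 to 9 and at least 10 UMIs of Arg1 had Mmp12 at 917, 1584, 2294 and 3087 CPM (counts without Arg1), Adam8 at 310.1, 425, 544 and 769, Nos2 at 177, 254, 344 and 537 and Cxcl3 at 575, 545, 699.7 and 1146. C1qa, a complement gene of macrophages, was used to choose the cells, so its levels are partly set by the rule. It was at 1010.5, 797, 781 and 561 CPM in the same bins. In A159V anti-PD1, which held 106 of the 181 cells with at least 10 UMIs, C1qa went the other way, at 503, 623, 741 and 766 CPM. Cxcl3 also differed by library. It was lower at 10 or more UMIs than at 2 in A159V IgG (1709, 532, 932 and 829 CPM). It was higher in WT anti-PD1 (9.21, 67.4, 427 and 443 CPM) and A159V anti-PD1 (477, 1225, 819.7 and 1699.9 CPM). In WT IgG (449, 20.6, 512 and 378 CPM) these 2 bins did not differ beyond counting error. The intervals were 362 to 551 CPM at 2 UMIs and 273 to 509 CPM at 10 or more. Before thinning, 21.9% of the WT IgG Arg1 macrophages had a UMI of Cxcl3. Libraries and bins are mixed in these sums, since the anti-PD1 libraries hold most cells with at least 10 UMIs. Within libraries Adam8 was at 200.3, 360.3, 460.3 and 544 CPM in WT IgG, 193, 185, 403 and 589 in WT anti-PD1, 417, 773, 380.5 and 618 in A159V IgG and 441, 482, 772 and 924 in A159V anti-PD1. Nos2 was at 112, 41.2, 86.3 and 202 CPM in WT IgG, 64.5, 194, 387 and 508 in WT anti-PD1, 64.1, 152, 127 and 244 in A159V IgG and 363, 495, 634 and 659 in A159V anti-PD1. Cells with more Arg1 UMIs were also deeper, with a median of 3260, 2957, 3552 and 4279 UMIs over the bins, and the bins held as few as 15 cells in 1 library, so these levels are a description.

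**Figure D5:**
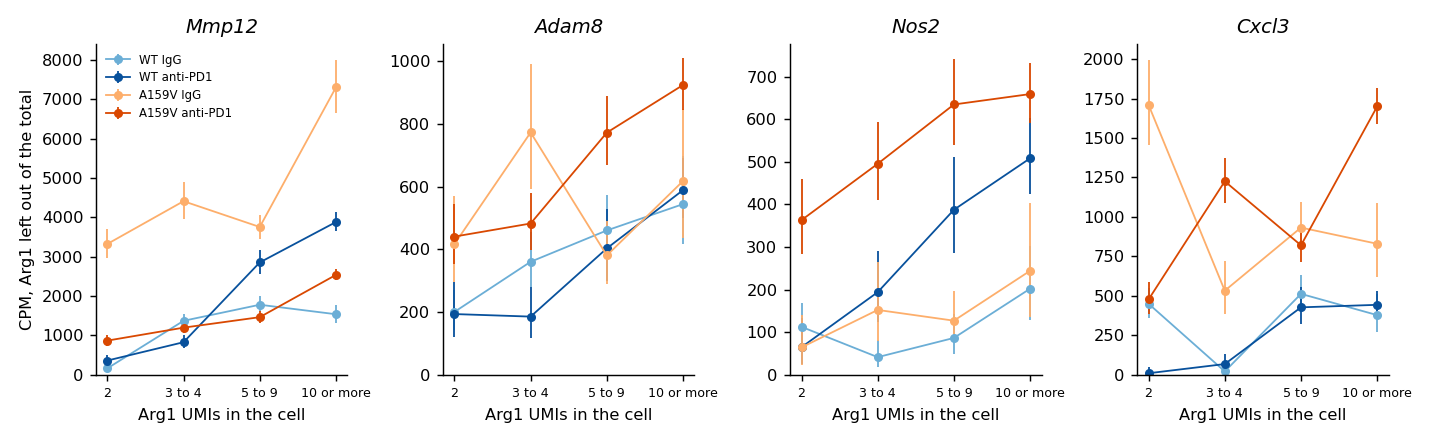
Level (CPM of counts without Arg1) of Mmp12, Adam8, Nos2 and Cxcl3 in Arg1 macrophages by the number of Arg1 UMIs in the cell, with 1 line per library. Adam8 and Nos2 were higher in cells with at least 10 Arg1 UMIs than in those with 2 in each library. The intervals for counting error overlapped for Nos2 in the IgG libraries and for Adam8 in A159V IgG. Between the same bins Cxcl3 was higher in the anti-PD1 libraries at 10 or more UMIs and lower in A159V IgG. In WT IgG the Cxcl3 intervals overlapped (449 CPM at 2 UMIs and 378 CPM at 10 or more). Mmp12 of A159V IgG lay above the other libraries at 2 UMIs (3323 CPM).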

How the data were processed

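Each library was made from cells of MC38 tumors with 10x Genomics 3′ chemistry. The values are UMI counts, not normalized, which the authors deposited as a matrix of genes by barcodes called as cells. The file headers name Cell Ranger 7.2.0, while the submitters' notes name 5.0.1, on mm10 with intronic reads included. The authors' later removal of background RNA and doublets is not part of these counts. The files held 7802, 7430, 8685 and 9311 barcodes with 93030164, 54402632, 113779013 and 125227747 UMIs (WT IgG, WT anti-PD1, A159V IgG, A159V anti-PD1), of which 7292, 6840, 8132 and 8879 cells had more than 500 genes. Doublets were scored by a reimplementation of Scrublet and marked at 0.8% per 1000 cells, which marked 9, 7, 11 and 20 Arg1 macrophages, and they were removed only as an alternative.

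UMIs were summed per class and library and tested with edgeR 4.0.16 (R 4.3.3, TMM scaling, filter on low counts, quasi-likelihood test, library block, 8 sums), with a call at an adjusted p under 0.05 and at least 2-fold. Comparisons between libraries used CPM with exact Poisson and delta-method intervals. Shares have Clopper-Pearson intervals and their ratios Katz intervals, all at 95% and for counting error only. Thinning to 2000 UMIs was seeded. Python 3.11.15, numpy 2.4.6, scipy 1.17.1 and pandas 2.3.3 were used, and DESeq2 1.42.0 as an alternative. The edgeR step was tested on simulated data.

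The cells, lists and tests were chosen with earlier results of these data known. Named genes were the markers, list genes and, in each test across genes, the 10 (counterparts) or 5 (others) highest and lowest folds past the call with at least 50 CPM in 1 class and the same direction in 4 libraries. Between libraries they were the 5 highest and lowest with at least 100 CPM. Genes of the gate, mitochondrial, ribosomal, hemoglobin, immunoglobulin, T cell receptor and unnamed genes were left out, as were genes over 5 times higher in another gated class of at least 20 cells. Some genes that the rule names are not reported here. The platelet genes, leaving out cells with fibroblast UMIs, leaving out the 3 deepest cells and dropping the Hmga2 limit were added after seeing the data. Promoters came from RefSeq (GRCm38.p6) and positions from GENCODE M21 (GRCm38), which matched 32158 of 32285 genes.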

Additional observations from a re-analysis of the deposited data

Results flagged for a closer look

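In Arg1 macrophages 4 genes differed at least 2-fold between the anti-PD1 and the IgG library in both tumor genotypes but in opposite directions. The difference between the genotypes was not tested, since each group is 1 library. Chil3, which encodes a chitinase-like protein, had a log2 ratio of −2.22 in WT and 2.37 in A159V. Mmp12, macrophage elastase, had 1.10 in WT and −1.29 in A159V, and without the cells with fibroblast UMIs the ratios were 0.44 and −1.35. A single cell weighed on Mmp12 in each anti-PD1 library, with the share of its UMIs given above beside the marker levels. Ncoa4, a receptor for the autophagy of ferritin, had 1.13 in WT and −1.03 in A159V. Efna5, an ephrin ligand gene, had 4.09 in WT and −2.72 in A159V, and without the cells with fibroblast UMIs −0.12 and −3.17. A single cell marked as a doublet held 50% of the Efna5 UMIs of WT anti-PD1.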

How the results depend on the processing

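The ratios of shares of Arg1 macrophages moved in 3 cases. Cells thinned and then gated again gave 1.41 for A159V IgG over WT IgG (a turn of direction) and 3.62 for WT anti-PD1 over WT IgG. No Mrc1 limit gave 4.30 for WT anti-PD1 over WT IgG. Of genes against the counterparts, 180 were higher and 50 lower with no library block, 221 higher with cells matched on UMIs, and 756 lower with no filter on low counts. Leaving out 1 library gave 1.67% to 3.87% of genes higher and 0.525% to 3.06% lower. Against Mrc1 macrophages the counts were 88 and 29 with no block, 73 lower by DESeq2, 219 lower with no filter, and 2.19% to 3.51% higher and 0.640% to 2.30% lower without 1 library. Against Ly6c2 monocytes 310 were lower with matched cells, and 4.28% to 5.69% were higher without 1 library. The library block pairs the 2 classes of 1 library. Between libraries, a minimum of 20 CPM gave 449 and 594 genes higher and lower in A159V IgG over WT IgG, 856 and 672 in WT anti-PD1 over WT IgG and 349 and 502 in A159V anti-PD1 over A159V IgG. A pseudocount of 10 CPM gave 92 higher in the first and 83 lower in the last, where median-of-ratios scaling gave 94. List medians in WT anti-PD1 over WT IgG without the cells with fibroblast UMIs were 0.10 for glycolysis and −0.0051 for alternative activation (both turned), 0.066 for hypoxia, 0.99 for resident-type macrophages, 0.58 for immunosuppressive mediators and −3.75 for the cell cycle, which was 0.28 (turned) without doublets. In A159V IgG over WT IgG lipid-associated genes gave 0.53 without doublets and matrix remodeling genes 0.50 without fibroblast UMIs. In A159V anti-PD1 over A159V IgG lipid-associated genes gave −0.55 and cell cycle genes 0.34 (turned) without doublets, and −0.96 for the cell cycle without fibroblast UMIs. Among single genes C1qtnf3 (−1.37 without fibroblast UMIs, −1.05 without the 3 deepest cells), Efna5 (−0.12), Cilp (−0.96 without the 3 deepest cells) and Shisal2b (0.25 without doublets) turned. The cause was not tested in these cases. Of the genes named by rule, 19 calls were lost over all settings, with no library block among them for Rap1gap2, Ifitm6, Brinp3, Chil3, Plcl1, Fdps, Fcgrt and Pdgfc. No paired analysis beyond the library block was possible because each group has 1 library. Counts of the shallowest library, A159V IgG with 392323 UMIs in 109 Arg1 macrophages, limit what could be seen in genes near 50 CPM.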
